A study of Mus musculus with 6 samples.

Results

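The small leucine-rich proteoglycans are secreted matrix proteins built from leucine-rich repeats, and 8 of them form this set together with Islr and Mgp, 10 genes among the 18193 that single-gene probe sets name on the array. The rule takes each probe set that names exactly 1 gene in the platform annotation, with the symbol Ogn, Dcn, Lum, Bgn, Fmod, Omd, Aspn, Prelp, Islr or Mgp, which gave 21 probe sets. The set was chosen by the intensities of the S100a10 arrays, in which Ogn, Islr and Mgp were very high, so their differences between the lines are a description and carry no test here.

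The S100a10 line (ES691) was compared with the Glt25d2 line (DU9), and both are mice with a bacterial artificial chromosome (BAC) transgene. In each, DNA around the named driver gene directs production of tagged ribosomes, from which messenger RNA can be purified. Both lines came from FVB and were crossed to C57BL/6 for 3 to 5 generations, and neither was treated. The tagged ribosomes were pulled from cortex by translating ribosome affinity purification (TRAP), amplified from 15 ng in 2 cycles and read on 1 array for each of 3 biological replicates per line. Each driver is represented by 1 transgenic line, the series text says that the S100a10 transgene also marks cells that are not neurons, and the age, sex and number of mice per replicate are not given in the sources used here. All values are GCRMA intensities, and 50 is the limit that the series text proposes for them.

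Members of this family bind collagen fibrils and set their spacing and thickness, and several also hold growth factors of the TGF-beta and BMP families in the matrix. Most carry chains of chondroitin, dermatan or keratan sulfate, sugars that are added in the Golgi apparatus. In the brain they are known mainly from fibroblasts of the meninges and of the larger vessels. Islr, also called meflin, is a membrane-anchored protein with leucine-rich repeats and an immunoglobulin domain that marks mesenchymal stromal cells. Mgp, matrix Gla protein, is a small vitamin K-dependent inhibitor of calcification that binds BMPs and has no such repeats.

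Several members lie side by side in the genome, and Ogn, Omd and Aspn are direct neighbours of which 2 were high in S100a10 arrays and 1 was under 50 in every array. Intensities of different probes are not comparable levels, so only the side of the limit is given here. The 250 bases before the transcription starts of these adjacent genes are shown, with those of Islr beside them. Of the 10 genes 7 had an entry in the RefSeq promoter table for GRCm38.p6, and Dcn, Lum and Mgp had none. Capitals mark the letters TATAAA, read on either strand. The windows are chr13:49607765-49608014 (+ strand) for Ogn, chr13:49582212-49582461 (+ strand) for Omd, chr13:49544193-49544442 (+ strand) for Aspn and chr9:58158555-58158804 (- strand) for Islr.
Ogn: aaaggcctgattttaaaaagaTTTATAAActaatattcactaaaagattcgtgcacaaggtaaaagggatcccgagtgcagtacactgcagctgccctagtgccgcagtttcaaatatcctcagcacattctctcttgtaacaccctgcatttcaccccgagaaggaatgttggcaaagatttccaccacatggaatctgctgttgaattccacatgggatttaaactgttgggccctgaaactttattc
Omd: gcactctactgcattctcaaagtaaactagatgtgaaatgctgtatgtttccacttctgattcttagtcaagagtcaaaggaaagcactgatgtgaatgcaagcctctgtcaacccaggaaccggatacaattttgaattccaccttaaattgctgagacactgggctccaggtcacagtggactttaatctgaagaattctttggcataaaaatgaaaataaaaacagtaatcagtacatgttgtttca
Aspn: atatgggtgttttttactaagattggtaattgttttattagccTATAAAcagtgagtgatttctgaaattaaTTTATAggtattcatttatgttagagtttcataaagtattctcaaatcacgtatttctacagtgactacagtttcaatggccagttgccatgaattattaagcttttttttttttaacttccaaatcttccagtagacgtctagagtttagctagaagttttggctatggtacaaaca
Islr: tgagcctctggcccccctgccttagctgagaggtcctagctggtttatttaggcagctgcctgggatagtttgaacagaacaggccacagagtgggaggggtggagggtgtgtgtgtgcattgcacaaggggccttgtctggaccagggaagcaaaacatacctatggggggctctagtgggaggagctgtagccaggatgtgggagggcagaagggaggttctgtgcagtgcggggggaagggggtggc

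The letters TATAAA stood in the windows of Ogn, where matches on both strands overlap, and of Aspn, 2 of the 7 members with a window, and in 12.4% of the 32851 windows of the table. The forkhead letters GTAAACA were in none of the 7 and in 3.17% of all windows, and the AP-1 letters TGANTCA in none of the 7 and in 6.75% of all. The GC box letters GGGCGG were found in the window of Bgn alone, in 1 of 7, against 32.7% of all windows. G and C made up 42% of the Ogn window, 38.4% of that of Omd, 30% of that of Aspn and 59.6% of that of Islr, against a median of 52.4% over the table. Both strands were searched each time, and a missing match says only that these letters are not in the window.

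Of the 10 genes 9 had a probe set that reached a mean of 50 in at least 1 line. All 9 were higher in S100a10 arrays at an adjusted p under 0.05 in limma, where 44.7% of the 11821 genes tested were higher and 4.59% lower. The choice of the genes used this contrast, and 6 of the 9 passed the limit only through S100a10 arrays, so nothing is read from that count. In bulk RNA of this kind, fewer cells of a type and less RNA per cell cannot be told apart.

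Ogn encodes osteoglycin, or mimecan, which regulates collagen fibril growth. Its brighter probe set, 1419663_at, had intensities of 4992, 6543 and 5871 in the S100a10 arrays, against 17.0, 32.9 and 10.9 in the Glt25d2 arrays. Every Glt25d2 array lay under 50, so the level was at least 115-fold higher in S100a10 arrays when set against 50. Such a bound is the mean of the S100a10 log2 values over the limit, and it holds for the deposited scaling. The other probe set of Ogn, 1419662_at, had 538, 742 and 677 in S100a10 arrays, against 7.13 in each Glt25d2 array, a bound of 12.9-fold.

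Omd, osteomodulin or osteoadherin, is a keratan sulfate proteoglycan known from bone. It had 457, 522 and 459 in S100a10 arrays, against 30.1, 30.1 and 30.4 in Glt25d2 arrays. The groups did not overlap, and the bound was 9.57-fold. After quantile normalization of the 6 arrays its log2 difference of 3.99 (SE 0.10) became 3.20, which as a fold lies under that bound. Aspn, asporin, which binds calcium and TGF-beta, had 23.7, 22.1 and 24.04 in S100a10 arrays and 15.7, 14.3 and 15.3 in Glt25d2 arrays for its brighter probe set. Both of its probe sets lay under 50 in all 6 arrays, so no fold is given.

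Dcn, decorin, is a dermatan sulfate proteoglycan that binds fibrillar collagen and TGF-beta. Its probe set 1449368_at had 1932, 2244 and 1916 in S100a10 arrays, against 80.7, 88.2 and 15.97 in Glt25d2 arrays. The groups did not overlap, and Glt25d2 replicate 3 was the low array of its line. The log2 difference was 5.39 (SE 0.68), or 4.59 (SE 0.13) without Glt25d2 replicate 3. The second probe set of Dcn, 1441506_at, gave 6.04, 6.58 and 6.55 in S100a10 arrays and 6.43, 6.18 and 6.53 in Glt25d2 arrays, so the probe sets of this gene disagreed.

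Lum, lumican, organises collagen fibrils of the cornea and other tissues. It had 243, 257 and 312 in S100a10 arrays, against 7.30, 8.67 and 7.38 in Glt25d2 arrays, at least 5.38-fold higher. Bgn, biglycan, resembles decorin and also binds Toll-like receptors. Its tested probe set, 1448323_a_at, had 814, 1216 and 805 in S100a10 arrays, against 22.8, 22.8 and 22.5 in Glt25d2 arrays, at least 18.5-fold higher. The remaining Bgn probe sets, 1416405_at and 1437889_x_at, had bounds of 13.5-fold and 7.27-fold.

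Fmod, fibromodulin, binds collagen and carries keratan sulfate, and 6 probe sets named it. The brightest, 1456084_x_at, had 12183, 18629 and 15945 in S100a10 arrays, against 189, 258 and 37.7 in Glt25d2 arrays. The log2 difference was 6.97 (SE 0.74), or 6.12 (SE 0.22) without Glt25d2 replicate 3. The letter x in a probe set name marks probes that can match other transcripts. The only Fmod probe set without it, 1415939_at, had 1944, 2924 and 2806 in S100a10 arrays, against 44.2, 56.1 and 28.8 in Glt25d2 arrays, a log2 difference of 5.92. Over the 6 probe sets the log2 differences ran from 5.92 to 7.55, and no probe set had overlapping groups.

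Prelp encodes a protein that binds collagen and the heparan sulfate of basement membranes. Its probe set 1416321_s_at had 790, 956 and 897 in S100a10 arrays, against 20.7, 23.8 and 20.3 in Glt25d2 arrays, at least 17.6-fold higher. The dimmer 1416322_at had 89.6, 101.0 and 89.3 in S100a10 arrays, against 6.73, 6.59 and 6.84 in Glt25d2 arrays, a bound of 1.86-fold.

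Outside the proteoglycans, Islr had 1501, 2458 and 1927 in S100a10 arrays, against 15.9, 26.9 and 5.86 in Glt25d2 arrays. That gave a bound of 38.5-fold. Mgp had 8048, 9516 and 7876 in S100a10 arrays, against 90.1, 86.8 and 21.4 in Glt25d2 arrays. Its log2 difference was 7.26 (SE 0.58), or 6.58 (SE 0.13) without Glt25d2 replicate 3. The arrays of the lines lay far apart for both genes, with a spread inside the Glt25d2 line that came from replicate 3 for Mgp and from all 3 arrays for Islr.

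Of the 21 probe sets, 18 were above 50 in every S100a10 array and 0 in every Glt25d2 array. At least 1 Glt25d2 array was above 50 in 5 of them, which belong to Dcn, Fmod and Mgp. In 20 of the 21 the lines did not overlap, and every S100a10 array was above every Glt25d2 array in 55.9% of all genes tested, a share that the choice of the genes keeps from being read against them.

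**Figure D1:**
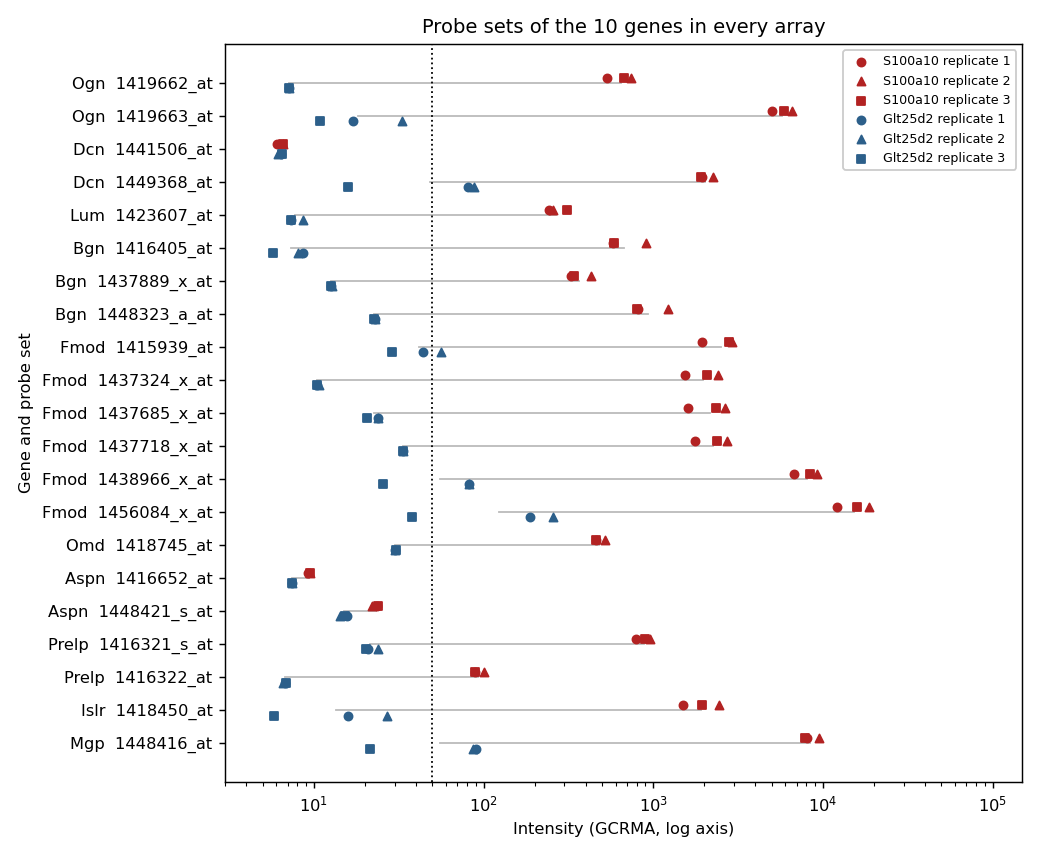
Intensity (log axis) of each of the 21 probe sets in 3 S100a10 arrays (red, upper points) and 3 Glt25d2 arrays (blue, lower points), with the dotted line at 50 and a grey line joining the geometric means. The S100a10 points of 18 probe sets lie right of 50, while both Aspn probe sets and 1 of Dcn stay left of it in all arrays.

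The chromosomal neighbours were not part of the choice. By RefSeq gene order in GRCm38.p6, Ecm2, Aspn, Omd and Ogn follow one another, Dcn and Lum are followed by Kera, and Optc, Prelp and Fmod are adjacent when only protein-coding genes are counted. Ecm2, a matrix protein related to decorin, had 11.99, 13.1 and 13.2 in S100a10 arrays and 5.93, 5.93 and 5.70 in Glt25d2 arrays. Kera, keratocan of the cornea, had 8.93, 9.17 and 9.25 in S100a10 arrays and 9.03, 8.78 and 9.03 in Glt25d2 arrays. Optc, opticin of the eye, had 6.85, 7.07 and 7.26 in S100a10 arrays and 6.80, 6.69 and 6.80 in Glt25d2 arrays. All 3 of these relatives lay under 50 in every array.

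On its other side Ogn borders Nol8, a nucleolar protein gene, which differed by -0.51 on the log2 scale (SE 0.23, limma adjusted p = 0.115) and did not pass. Islr lies between Stra6 and Islr2. Stra6, the membrane receptor for retinol-binding protein, had 107, 80.2 and 80.8 in S100a10 arrays, against 10.1, 10.1 and 12.1 in Glt25d2 arrays. It was at least 1.77-fold higher (limma adjusted p = 5.45e-05). Stra6 entered only through S100a10 arrays, so nothing is read from its direction. Islr2, a relative of Islr known from axon growth, had 50.3, 103.9 and 81.0 in S100a10 arrays and 79.6, 81.8 and 55.6 in Glt25d2 arrays. Its groups overlapped, and it did not pass at 0.08 on the log2 scale (SE 0.31, limma adjusted p = 0.850).

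**Figure D2:**
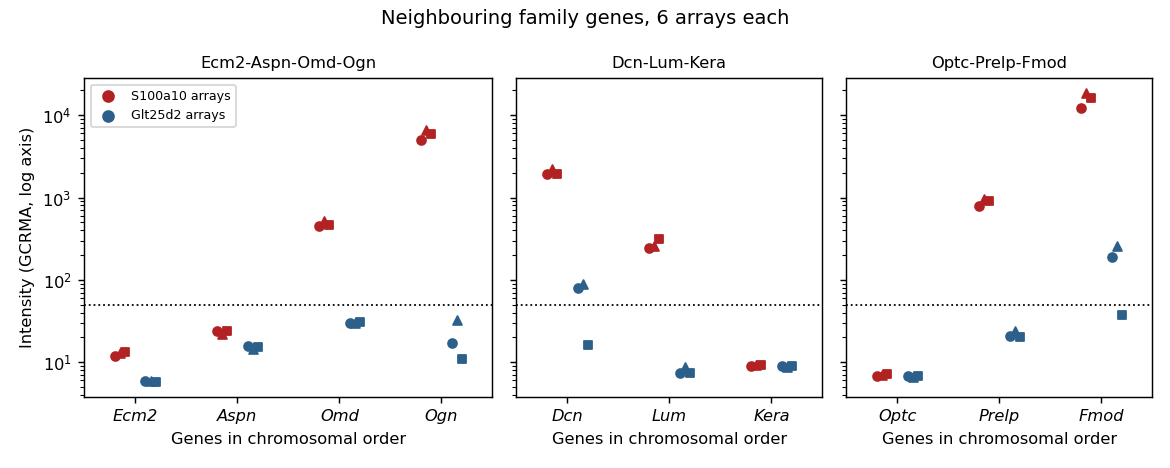
Intensity (log axis) of neighbouring family genes in chromosomal order, each with 3 S100a10 arrays (red, left) and 3 Glt25d2 arrays (blue, right) and the dotted line at 50. Ecm2, Aspn, Kera and Optc stay under 50 in all 6 arrays, next to Omd, Ogn, Dcn, Lum, Prelp and Fmod, which exceed it in every S100a10 array.

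Inside each line the members also moved between replicates, a measure that the choice did not use. In S100a10 arrays 8 of the 9 members above the limit were highest in replicate 2, Lum being the exception, and so were 17 of the 18 probe sets above 50. Of all genes tested 34.5% were highest in that array. The differences were small. Bgn lay 0.59 (log2) above the mean of replicates 1 and 3 in replicate 2, Islr 0.53 and Fmod 0.42, while Lum lay at -0.10. The median of the 9 was 0.26, against 0.01 for all genes, and 0.29 against 0.04 after quantile normalization. Of the fibroblast markers 5 of 12 were highest in replicate 2, with a median of 0.09, and whether that differs from the members was not tested. The corresponding median was 0.56 for the fibrillar collagens and Loxl1 (4 of 5 genes), 0.56 for 7 astrocyte markers, 0.69 for 4 microglial markers and 0.47 for oligodendrocyte markers, of which 7 of 7 were highest there. For the other marker lists it was 0.22 for interneurons, 0.22 for 3 endothelial genes, 0.19 for mural cells and 0.10 for pyramidal cells. It was -0.50 for 2 genes of choroid plexus and ependyma, of which Ttr had 261 in replicate 3, against 36.9 and 45.2 in replicates 1 and 2. That median thus rests largely on 1 array of 1 gene. The part of these other cell types in the members' pattern was not tested.

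**Figure D3:**
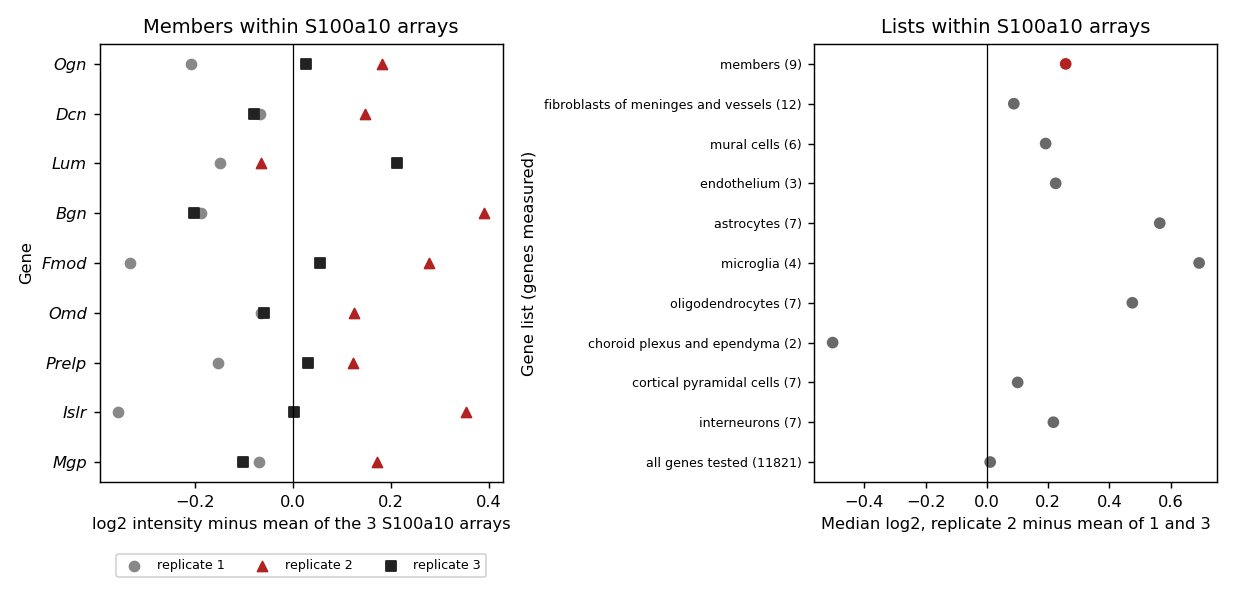
Left, log2 intensity of the 9 members above the limit in each S100a10 array minus their mean over the 3 S100a10 arrays; right, the median over each gene list of replicate 2 minus the mean of replicates 1 and 3. Replicate 2 is the highest point for every member shown but Lum. The members' median of 0.26 lies above those of fibroblast (0.09), mural (0.19), interneuron (0.22) and endothelial (0.22) markers. It lies below those of oligodendrocyte (0.47), astrocyte (0.56) and microglial (0.69) markers.

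In the Glt25d2 line replicate 3 was low for the members that could be measured there. Of the 4 member probe sets above 50 in replicates 1 and 2, 1449368_at of Dcn was 5.28-fold lower in replicate 3, 1456084_x_at of Fmod 5.86-fold, 1438966_x_at of Fmod 3.22-fold and 1448416_at of Mgp 4.13-fold. Over 4-fold lower values in that array were found in 9.46% of the 10420 genes that averaged at least 50 in replicates 1 and 2. The members measured there thus shared 1 low array, and its part in their Glt25d2 means shows in the differences given without it.

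Markers of the labelled cells and of others gave the setting. The driver S100a10 had a mean of 15486 ± 2417 in S100a10 arrays and 3237 ± 179 in Glt25d2 arrays (SD, n = 3 each), and Colgalt2, the current name of Glt25d2, 11.6 ± 0.198 in S100a10 arrays and 1077 ± 263 in Glt25d2 arrays (SD, n = 3 each). Pyramidal cell markers were present in both lines, with 7 of 8 listed genes measured and summed intensities of 27889.5 to 30125 in S100a10 arrays and 25124 to 28164 in Glt25d2 arrays. Rbfox3, a gene of most neurons, made up the largest share of these sums, with means of 15135 in S100a10 arrays and 10511 in Glt25d2 arrays. Of the 7 genes 3 were higher and 2 lower, with log2 differences of 2.12 for Slc17a7, 0.94 for Neurod6, 0.53 for Rbfox3, -1.24 for Fezf2 and -1.66 for Bcl11b. Of 13 markers of meningeal and vessel fibroblasts 12 were tested and 12 were higher in S100a10 arrays, beside 44.7% of all genes. The sums over the list were 35844.5 to 41307 in S100a10 arrays against 303 to 565 in Glt25d2 arrays. Of the 13, 10 were under 50 in every Glt25d2 array, Col1a1, Col1a2, Foxc1 and Twist1 among them. Those of the 10 that were tested had entered only through S100a10 arrays, so nothing is read from their direction. Col1a1, the marker not tested, was also near or under 50 in S100a10 arrays (36.4, 55.6 and 43.0). Of 10 mural cell markers 6 were tested, 4 higher and 1 lower, and the sums were 4358 to 5668 in S100a10 arrays against 722 to 894 in Glt25d2 arrays. Higher were Pdgfrb (781 to 941 in S100a10 arrays, against 8.93 to 25.5 in Glt25d2 arrays), Tagln (691 to 1180, against 32.8), Myl9 (1515 to 1748, against 24.9 to 31.5) and Acta2 (864 to 1662, against 168 to 247). Lower was the pericyte gene Rgs5, with 217 to 260 in S100a10 arrays and 373 to 497 in Glt25d2 arrays. Abcc9, Kcnj8, Myh11 and Notch3 were under 50 in all 6 arrays. Pdgfrb, Tagln and Myl9 were under 50 in every Glt25d2 array, so they entered only through S100a10 arrays. The part of fibroblasts or mural cells in the members' levels was not tested. Of the other lists, beside 44.7% of all genes higher and 4.59% lower, 2 of 7 astrocyte markers were higher and 2 lower, 1 of 4 microglial markers was higher, and 1 of 7 oligodendrocyte markers was higher and 2 lower. The higher microglial gene Tmem119 and oligodendrocyte gene Olig2 were under 50 in every Glt25d2 array and entered only through S100a10 arrays. The lower astrocyte gene Gfap was under 50 in every S100a10 array and entered only through Glt25d2 arrays. Nothing is read from the direction of these genes. Olig2 did not pass after quantile normalization (0.44, limma adjusted p = 0.227). Of 7 interneuron markers 3 were higher and 1 lower, with log2 differences of 3.46 for Npy, 2.88 for Sst, 2.57 for Lhx6 and -2.43 for Pvalb. Endothelial markers were called in 0 of 3 tested genes by limma, but 2 were lower after quantile normalization and 3 without Glt25d2 replicate 3. Markers of choroid plexus and ependyma were higher in 2 of 2 tested genes, and in 0 after quantile normalization or centring. Of the 2, Ttr had 36.9, 45.2 and 261 in S100a10 arrays, against 11.4 in each Glt25d2 array. Only S100a10 replicate 3 took its mean past 50, so nothing is read from its direction. The part of these cell types in the members' levels was not tested. The median intensity of all probe sets was 35.5 to 35.8 in S100a10 arrays and 20.4 to 21.3 in Glt25d2 arrays.

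Genes that build, bind or cut these matrix proteins were not chosen for the contrast, though their lists were drawn up with earlier results of the series known. Of 87 genes on 8 lists 53 were tested, 29 rose in S100a10 arrays, 1 fell and 23 did not pass, where 44.7% of all genes rose. After quantile normalization 21 were higher and 6 lower, where 18.7% of all genes were higher and 19% lower. Without Glt25d2 replicate 3 the counts were 35 and 7, where 55.8% and 6.34% of all genes were called. The median log2 difference of all genes was 0.56 as deposited, -0.02 after quantile normalization and -0.21 after centring each array on its median, and the list medians are to be read beside it. With a mean of 50 required in both lines, 11 pathway genes were higher and 0 lower, since many had passed the limit through S100a10 arrays alone.

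Fibrillar collagens and their cross-linking enzymes, the fibrils that the members bind, rose in 5 of 5 tested genes, beside 44.7% of all genes higher. The median log2 difference was 4.22, or 1.95 with values under 50 set to 50. With a mean of 50 required in both lines, 0 genes of the list were higher. The list holds 12 genes, and all 11 with a single-gene probe set were under 50 in every Glt25d2 array, so those tested had passed through S100a10 arrays. Col1a1, with 36.4, 55.6 and 43.0 in S100a10 arrays, did not reach the limit and was not tested. Col1a2, a chain of type I collagen, had 1448, 2373 and 1781 in S100a10 arrays, against 16.7, 16.7 and 17.0 in Glt25d2 arrays. It was at least 36.6-fold higher (limma adjusted p = 8.46e-06). The bounds were 5.91-fold for Col3a1, 3.85-fold for the lysyl oxidase Loxl1, 2.23-fold for Col5a2 and 1.57-fold for Col5a1, with limma adjusted p values of 0.0023 or lower. Col5a1 at 0.38 did not pass after quantile normalization (limma adjusted p = 0.176).

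The enzymes that assemble chondroitin and dermatan sulfate, the chains of decorin and biglycan, rose in 8 of 17 tested genes and fell in 0, a share near the 44.7% of all genes, with a median of 1.28. Dse, the epimerase that turns chondroitin into dermatan sulfate, had 224, 132 and 228 in S100a10 arrays, against 19.97, 19.97 and 19.04 in Glt25d2 arrays, at least 3.79-fold higher (limma adjusted p = 1.64e-04). Chst14, which sulfates dermatan, had 81.5, 90.0 and 61.3 in S100a10 arrays, against 7.35, 9.20 and 6.89 in Glt25d2 arrays, at least 1.53-fold higher (limma adjusted p = 8.35e-05). Dse and Chst14 thus both stayed under 50 in every Glt25d2 array. The sulfotransferase Chst15 differed by 2.02 (SE 0.56), or 1.36 without Glt25d2 replicate 3, and the chain-building Chsy1 by 1.84 (SE 0.25). The counts were 5 higher and 2 lower after quantile normalization, and 13 and 1 without Glt25d2 replicate 3. Ust, a uronyl sulfotransferase, turned from 0.44 (limma adjusted p = 0.0089) to -0.49 (limma adjusted p = 0.0132) after quantile normalization. Chst15 did not pass in that fit, at 1.49 (limma adjusted p = 0.057).

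Of 5 tested genes for keratan sulfate, the chain of lumican and fibromodulin, 2 rose and 0 fell, no larger a share than the 44.7% of all genes, with a median of 1.06, or 0.74 with values under 50 set to 50. They were the galactosyltransferases B4galt1, at least 1.24-fold higher, and B4galt4, with a log2 difference of 1.47 (SE 0.43). B4galt1 was under 50 in every Glt25d2 array and entered only through S100a10 arrays. With a mean of 50 required in both lines, 0 of the keratan sulfate genes were higher. B4galt4 did not pass after quantile normalization (0.61, limma adjusted p = 0.295). In that fit 1 gene was higher and 1 lower, the lower being the sulfotransferase Chst2, at -1.32 (limma adjusted p = 0.0014). Without Glt25d2 replicate 3 the counts were 3 higher and 1 lower. Without any 1 of the S100a10 arrays, or without Glt25d2 replicate 1, only 1 gene was higher. Chst1, the keratan sulfate sulfotransferase, had 5606, 6109 and 7623 in S100a10 arrays and 4393, 4152 and 1574 in Glt25d2 arrays, and its difference of 1.06 on the log2 scale (SE 0.43, limma adjusted p = 0.0865) did not pass. Without Glt25d2 replicate 3 Chst1 passed, at 0.58 (limma adjusted p = 0.0159).

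Signals and receptors that bind decorin, biglycan or Mgp rose in 6 of 10 tested genes and fell in 0, beside 44.7% of all genes higher, with a median of 1.66, or 1.40 with values under 50 set to 50. Of the 6, 4 were under 50 in every Glt25d2 array and so entered only through S100a10 arrays, and with a mean of 50 required in both lines 1 was higher. Bmp4, a BMP ligand that Mgp binds, had 1256, 1253 and 1252 in S100a10 arrays, against 11.1 in each Glt25d2 array, at least 25.1-fold higher (limma adjusted p = 3.14e-06). The related Bmp7 had 958, 1094 and 843 in S100a10 arrays, against 19.0 in each Glt25d2 array, at least 19.2-fold higher. Identical Glt25d2 values, which at least 2 arrays shared in 46.8% of all probe sets, give a spread of 0 for both genes there. Tlr4, a receptor for biglycan, was at least 2.58-fold higher, and Bmp2 differed by 2.45 (SE 0.26). After quantile normalization and also without Glt25d2 replicate 3 the counts were 6 higher and 1 lower, the lower gene being Tgfb2, with -0.50 (limma adjusted p = 0.21) in the deposited scaling and -1.38 after normalization.

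Of 5 tested proteases that can cut these proteins 4 rose and 0 fell, beside 44.7% of all genes higher, with a median of 2.28, or 0.67 with values under 50 set to 50. Mmp2, Mmp14 and Adamts5 entered only through S100a10 arrays, and with a mean of 50 required in both lines 1 gene was higher. Mmp14, a membrane-bound collagenase, had 253, 392 and 286 in S100a10 arrays, against 5.87 in each Glt25d2 array, at least 6.10-fold higher (limma adjusted p = 1.14e-05). Mmp2, a gelatinase, was at least 1.34-fold higher and the aggrecanase Adamts5 at least 1.59-fold. Bmp1, the procollagen C-proteinase that trims several family members, differed by 1.30 (SE 0.39, limma adjusted p = 0.0374) and did not pass after quantile normalization.

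The vitamin K cycle, which provides the carboxylation that Mgp needs, and other Gla proteins rose in 3 of 4 tested genes, beside 44.7% of all genes higher, with a median of 1.93, or 1.54 with values under 50 set to 50. Without any 1 of the S100a10 arrays only 1 of the 4 was higher. Vkorc1, the vitamin K epoxide reductase, had 1385, 1527 and 1625 in S100a10 arrays and 504, 427.5 and 115 in Glt25d2 arrays, a log2 difference of 2.37 (SE 0.57), or 1.70 without Glt25d2 replicate 3. Its relative Vkorc1l1 differed by 1.12 (SE 0.32), and Pros1, protein S, was at least 3.01-fold higher. Pros1 was under 50 in every Glt25d2 array and entered only through S100a10 arrays. Vkorc1l1 did not pass after quantile normalization, and after centring only 1 of the 4 was higher. Gas6, another Gla protein, had 513, 683 and 807 in S100a10 arrays and 555, 444 and 51.7 in Glt25d2 arrays and did not pass. Ggcx, the carboxylase on the list, had 7.64 to 7.80 in S100a10 arrays and 6.96 to 7.03 in Glt25d2 arrays. It lay under 50 in every array and was not tested, so the carboxylation step itself was not measured.

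Other members of the leucine-rich family were low. Of 11 listed genes 9 had a single-gene probe set and 7 of these were under 50 in every array. Besides Ecm2, Kera and Optc these were Epyc, Chad, Nyx and Podn, of which the highest value was 38.2, for Podn in an S100a10 array. Besides Islr2, only Chadl, a chondroadherin-like protein of cartilage, was tested, with 127, 147 and 135 in S100a10 arrays and 81.0, 79.8 and 81.0 in Glt25d2 arrays. It differed by 0.76 on the log2 scale (SE 0.10, limma adjusted p = 0.0016), which became -0.16 after quantile normalization and did not pass. The lecticans and their partners, the proteoglycan matrix around neurons, rose in 0 of 5 tested genes, beside 44.7% of all genes higher. Of the 5, 1 fell, beside 4.59% of all genes lower. That was Hapln2, a link protein of nodes of Ranvier, with 27.6, 35.5 and 30.6 in S100a10 arrays, against 52.4 in each Glt25d2 array. It was at least 1.05-fold lower (limma adjusted p = 0.0036). Hapln2 entered only through Glt25d2 arrays, where its identical values, just above the limit, give a spread of 0. With values under 50 set to 50 it was no longer called. Without Glt25d2 replicate 3, 4 of the 5 were lower, beside 6.34% of all genes.

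**Figure D4:**
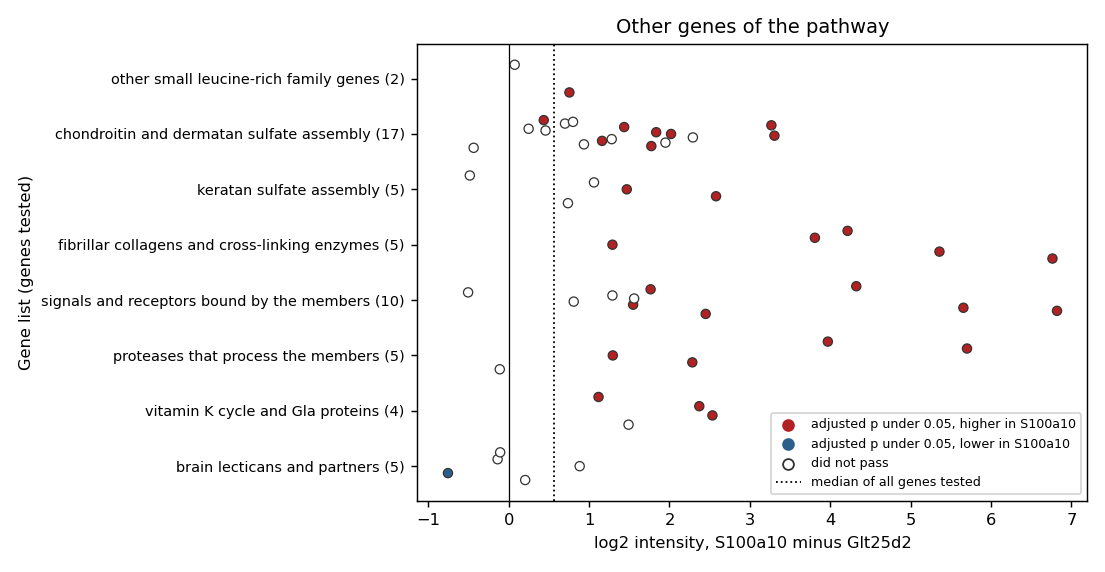
log2 difference, S100a10 minus Glt25d2, of each tested gene on the 8 lists, filled where the adjusted p was under 0.05 (red higher, blue lower), with the dotted line at the median of all genes (0.56). Where every array of a line is under 50, as for all 5 collagen and cross-linking genes, the plotted difference is the fitted one and not a bound. The lecticans and partners have 1 call, toward lower.

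Genes with the nearest profiles over the 6 arrays were sought for Ogn, Islr and Mgp, by Euclidean distance between log2 values with those under 50 set to 50 and each gene centred on its mean. The nearest to Ogn were Mpzl2 (distance 0.30), Igf2 (0.43) and Mgp (0.70). Those nearest to Mgp were Igf2 (0.61), Ogn (0.70) and Mpzl2 (0.74). Ogn, Mgp, Igf2 and Mpzl2 thus fell close together on this measure. Islr was nearest to Col1a2 (0.10), Foxc2 (0.47) and Bmp6 (0.48). Ogn, Islr, Mpzl2, Col1a2, Foxc2 and Bmp6 were under 50 in every Glt25d2 array, so all their Glt25d2 values were set to 50. The distance then follows mostly the S100a10 intensities, by which Ogn, Islr and Mgp were chosen. It is a description, and no likeness between the genes is read from it.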

How the data were processed

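RNA from TRAP of mouse cortex was measured on Affymetrix arrays, 3 S100a10 and 3 Glt25d2. The authors deposited linear intensities; GCRMA is the tool that the submitters' processing notes name, without a version. Averaging of replicates is mentioned in the series text, yet each of the 6 arrays has its own column, and these columns were analysed. Sorted log2 values differed by 0.0174 to 0.0811 on average between arrays of a line and by 0.447 to 0.508 between lines. Differences between the lines therefore shift with the scaling used, and the source of this gap was not tested. Precision is limited by having 3 arrays per line.

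Of 45101 probe sets 64 controls were left out; 34945 named 1 gene, 932 several and 9160 none, and symbols were checked by Entrez identifier against RefSeq for GRCm38.p6 (34741 matched, 0 changed). Probe sets whose mean reached 50 in either line were kept, and the brightest per gene was tested on log2 intensity (limma 3.58.1, R 4.3.3; a 2-sided moderated fit from lmFit with eBayes, no block), with Benjamini-Hochberg adjustment over 11821 genes and a threshold of 0.05, and a group with every array under 50 gave only a bound against 50. The fit was tested on simulated data with 200 changed genes. Tables were made with pandas 2.3.3 and numpy 2.4.6 under Python 3.11.15, and plots with matplotlib 3.10.9. P-values set each difference against the spread between these arrays. Equal values in at least 2 Glt25d2 arrays, found in 46.8% of all probe sets, make that spread smaller.

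The members, lists and tests were chosen with earlier results of these data known. Named genes are all members, all measured relatives, up to 4 genes past the threshold per list and direction with the largest differences, the drivers, markers, and 3 nearest profiles for Ogn, Islr and Mgp. Neighbours, Col5a1, Ust, Chst1, Chst2, Gas6 and Tgfb2 were named after their values were seen. Alternatives were no filter, a mean of at least 50 in both lines, quantile normalization, median centring, a pseudocount of 16, values under 50 set to 50, a block for the replicate number, a robust prior with trend, array weights, averaging the probe sets of a gene and leaving out each array; quantile normalization with Glt25d2 replicate 3 left out was chosen after seeing the data.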

Additional observations from a re-analysis of the deposited data

How the results depend on the processing

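Over 17 alternatives none of the 9 members above the limit took the other sign. Their number past the threshold was 9 in each except without a filter (10) and with a mean of at least 50 required in both lines (3), which removes genes low in 1 line; leaving out 1 array gave 9 to 9. The log2 difference ran from 6.85 to 8.72 for Ogn, 5.27 to 7.64 for Islr and 5.99 to 7.61 for Mgp. For Ogn and Islr the lowest came with values under 50 set to 50. Their larger differences rest on Glt25d2 values under the limit. Counts over all genes followed the scaling: 5285 higher and 542 lower as deposited, 8351 and 1645 without a filter, 2212 and 2247 after quantile normalization, 1958 and 3761 after median centring, and 2853 and 2800 after quantile normalization without Glt25d2 replicate 3. Array weights gave 892 lower and the replicate block 327. Of the pathway genes 29 were higher and 1 lower; 44 and 3 without a filter, 11 and 0 with the limit in both lines, 0 lower with values under 50 set to 50, and 6 lower after quantile normalization, after centring and with array weights, or 13 after quantile normalization without Glt25d2 replicate 3. With 1 array left out, 4246 to 6593 genes were higher and 369 to 749 lower, and 24 to 35 pathway genes were higher and 1 to 7 lower, the highest of each coming without Glt25d2 replicate 3. Replicate numbers were not taken to pair arrays, since the S100a10 titles add a letter to them and the deviations of same-numbered arrays correlated at -0.49, 0.27 and -0.26; 1 of 3 S100a10 arrays correlated best with its own number. With the block, 4222 genes, 25 pathway genes and 9 members were higher. The causes of these shifts were not tested, apart from the filters, which change which genes enter.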
